A study of Mus musculus with 4 samples.

Results

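The transcripts described here come from 41 genes of the cell division cycle, of 32285 genes counted, in single thymocytes of mice. The genes were taken as a listed set: 18 act at the start of DNA synthesis or during it (the replication members), and 23 act in G2 and mitosis (the mitotic members). All 41 are listed in the 4 deposited matrices and annotated as protein-coding in GENCODE vM21 (GRCm38). They were followed in 3 classes of cells set by single transcripts: cells with Ptcra but without Cd4, cells with Foxp3, and cells with both Cd4 and Trac.

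The study asked how the inhibitory receptor PD-1 acts on IL-2 and on the development of regulatory T cells in the thymus, and compared PD-1 knockout-labelled (KO-labelled) with wild-type (WT) mice. All animals were C57BL/6J mice aged 3 weeks, and the thymi of 4 animals were pooled per genotype and depleted of CD8-bearing cells. Live CD4+ HSA+ CD73- cells were sorted as CD25+, the gate named for regulatory T cells (Tregs) and their CD25+ progenitors, or as CD25-, the gate named for CD4 single-positive thymocytes. CD73 is missing from the stains that the protocol names, which include CD74, so the CD73 gate is given as named only. The 4 groups were therefore KO-labelled CD25+, WT CD25+, KO-labelled CD25- and WT CD25-, each a single 10x Genomics 5′ library. With 1 library per group, no difference has a replicate check and no test between groups was made: every comparison is of libraries, and genotype cannot be told apart from pool, sort or library preparation.

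After filtering, 9236 KO-labelled CD25+, 7649 WT CD25+, 1716 KO-labelled CD25- and 2985 WT CD25- cells were kept, with 11159298 to 68989300 UMIs (unique molecular identifiers, each marking a captured transcript) per library. The median cell held 4497 to 6299 UMIs. Pairs of libraries shared 4 to 96 cell barcodes. The filter of 500 genes per cell left out 1.38% and 1.59% of barcodes in the KO-labelled and WT CD25+ libraries and 42.9% and 34.3% in the KO-labelled and WT CD25- libraries, so the CD25- libraries stood apart in quality. Pdcd1, which encodes PD-1, was at 18.9 CPM (UMIs of the gene per 1e+06 UMIs) in the KO-labelled CD25+ library and 16.0 CPM in the WT CD25+ library, and at 27.2 CPM in the KO-labelled CD25- library and 18.3 CPM in the WT CD25- library. Its transcripts were thus not lower in the KO-labelled libraries. Which exons were removed is not in the labels, and reads from the 5′ end may fall elsewhere in the gene, so this level checks neither genotype label.

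The labelled cell types were set against marker genes. In the CD25+ gate, 6644 of the KO-labelled cells (71.9%) and 4824 of the WT cells (63.1%) had at least 1 UMI of Ptcra, the invariant partner of the T cell receptor beta chain in double-negative thymocytes, and none of Cd4. A list of genes of double-negative thymocytes, counted without Ptcra, which sets the class, and Il2ra, which encodes the sorted CD25, left 8 genes that summed to 2394 CPM in KO-labelled and 3122 CPM in WT cells of this class, and 6 genes of CD4 single-positive cells to 38.2 and 32.8 CPM, with Cd4 at 0 by the rule. Most cells of the CD25+ libraries therefore lacked the CD4 single-positive transcripts that the gate implies. The 8 double-negative genes still include Cd24a, which encodes the sorted HSA, and their sum without it was not computed. The Foxp3 class held 389 KO-labelled CD25+, 679 WT CD25+, 59 KO-labelled CD25- and 51 WT CD25- cells, and the 5 Treg genes other than Foxp3 and Il2ra summed to 2157 CPM in KO-labelled and 2593 CPM in WT CD25+ cells of this class. The Cd4 and Trac class held 304, 560, 765 and 1100 cells in the same order of libraries. The Ptcra class held 0 KO-labelled and 2 WT CD25- cells and was not examined in that gate. In the Cd4 and Trac class of the CD25+ gate, 11 KO-labelled and 6 WT cells also held Ptcra.

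A dividing cell first loads the MCM helicase onto replication origins and makes nucleotides and replication factors, whose genes are switched on largely by E2F factors at the G1/S boundary. Cyclins A and B with their kinase CDK1, the chromosomal passenger complex, centromere proteins and spindle motors accumulate later, in G2 and mitosis, and many of their promoters carry CCAAT boxes and CHR elements. In the thymus, double-negative cells that pass beta-selection divide rapidly, whereas most single-positive cells are resting.

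Promoters are shown to let the members' sequence features be read beside their levels. Of the 41 members, 33 had at least 1 window among the RefSeq promoters (GRCm38.p6), which gave 16 windows for 14 replication members and 19 windows for 19 mitotic members. The 250 bases before each start were searched on both strands for TTTGAA (CHR), CCAAT and the E2F-type letters TTTNNCGC. TTTGAA lay in 7 of 19 mitotic windows (36.8%) and 1 of 16 replication windows (6.25%), against 16.0% of all 32851 windows. CCAAT lay in 17 of 19 mitotic (89.5%) and 12 of 16 replication windows (75%), against 33.8% of all windows. TTTNNCGC lay in 6 of 16 replication windows (37.5%) and 1 of 19 mitotic windows (5.26%), against 4.28% of all windows. Ccnb2 (cyclin B2) is shown as the mitotic member with the highest KO-labelled over WT ratio in the Ptcra class, Mcm6 (a helicase subunit) as a replication member with E2F-type letters, and both windows of Uhrf1, which recruits maintenance DNA methylation, because it had the highest ratio of any member between the Ptcra class and the Cd4 and Trac class. Capitals mark the searched letters on either strand, and the sequences run 5′ to 3′ on the gene's strand.
Ccnb2, chr9:70421555-70421804, minus strand: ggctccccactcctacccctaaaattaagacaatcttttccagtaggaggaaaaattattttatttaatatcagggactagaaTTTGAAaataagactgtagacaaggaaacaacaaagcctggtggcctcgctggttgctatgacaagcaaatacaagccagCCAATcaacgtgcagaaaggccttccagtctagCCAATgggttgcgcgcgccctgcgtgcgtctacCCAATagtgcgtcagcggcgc
Mcm6, chr1:128359706-128359955, minus strand: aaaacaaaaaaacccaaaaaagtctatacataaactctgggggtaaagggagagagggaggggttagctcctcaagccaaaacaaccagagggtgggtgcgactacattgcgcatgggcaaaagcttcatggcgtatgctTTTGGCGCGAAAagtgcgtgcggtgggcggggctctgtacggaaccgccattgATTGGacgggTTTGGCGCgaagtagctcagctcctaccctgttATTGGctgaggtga
Uhrf1, first window, chr17:56303087-56303336, plus strand: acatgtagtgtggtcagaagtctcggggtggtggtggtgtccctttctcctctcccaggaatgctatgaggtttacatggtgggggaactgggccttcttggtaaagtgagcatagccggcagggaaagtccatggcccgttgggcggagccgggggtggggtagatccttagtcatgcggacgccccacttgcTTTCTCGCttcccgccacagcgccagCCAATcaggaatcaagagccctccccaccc
Uhrf1, second window, chr17:56304063-56304312, plus strand: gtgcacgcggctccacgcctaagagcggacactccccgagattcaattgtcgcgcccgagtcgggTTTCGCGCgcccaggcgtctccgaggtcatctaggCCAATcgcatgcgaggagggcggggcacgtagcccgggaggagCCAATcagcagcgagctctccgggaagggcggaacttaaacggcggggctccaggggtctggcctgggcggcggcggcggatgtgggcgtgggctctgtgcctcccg
The Ccnb2 window held TTTGAA 167 bases before the start and CCAAT 87, 54 and 21 bases before it. The Mcm6 window held E2F-type letters 110, 106 and 47 bases before the start, those at 110 and 106 overlapping on opposite strands, and CCAAT, read on the other strand as ATTGG, 57 and 14 bases before it. A match describes letters in a window and shows no binding.

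**Figure D1:**
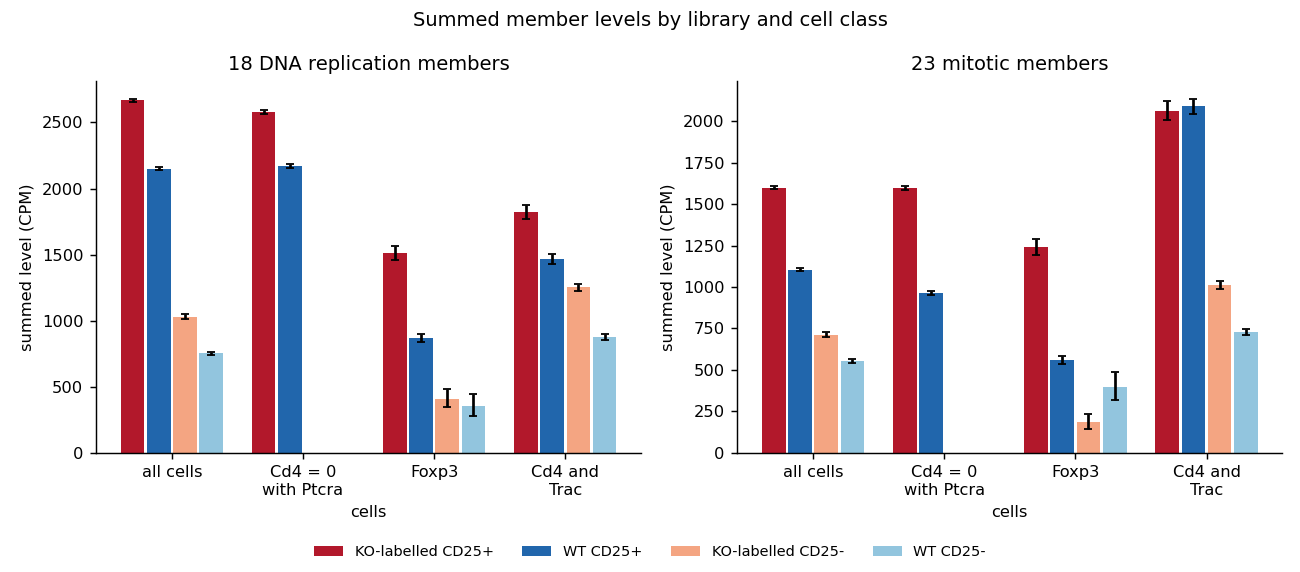
Summed level in CPM (vertical axes, linear from 0) of the 18 replication members (left) and the 23 mitotic members (right) in all cells and in each cell class of the 4 libraries; bars are levels and error bars are 95% Poisson intervals, which cover counting error only. In the Ptcra class the KO-labelled CD25+ bar stands above the WT bar in both panels, whereas in the Cd4 and Trac class of the CD25+ gate the mitotic bars, at 2065 and 2091 CPM, stand level.

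The Ptcra class was the largest class and differed most evenly between the CD25+ libraries. Its summed replication level was 2578 CPM in KO-labelled and 2172 CPM in WT cells, a ratio of 1.19 (95% interval 1.18 to 1.20). Its summed mitotic level was 1596 CPM in KO-labelled and 963 CPM in WT cells, a ratio of 1.66 (1.64 to 1.68). All 41 members had a ratio above 1, each with a counting interval above 1, so both sets were higher in the KO-labelled library and the mitotic set by the wider margin. Levels here and below are shares of a class's UMIs, so more dividing cells and more transcript per cell cannot be told apart from them alone. Genes entered a count where either library reached 20 CPM, and counted as higher or lower at a ratio of at least 1.5 in either direction. Of 36 members that entered, 17 were higher and 0 lower, 16 of them mitotic members and the other Esco2, against 2.3% of all 7082 genes higher and 1.74% lower. The median log2 ratio was 0.30 over the 16 replication members and 0.72 over the 20 mitotic members that entered, and -0.06 over all genes that entered. As the members were not chosen at random, these counts describe the set and test nothing.

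Among the genes that open S phase, the 2 E cyclins were low but stood apart. Ccne1 (cyclin E1) was at 10.8 CPM in KO-labelled and 5.60 CPM in WT Ptcra cells, a ratio of 1.94 (1.64 to 2.29), the highest of the replication members. Ccne2 (cyclin E2) was at 18.2 and 12.9 CPM, a ratio of 1.41 (1.26 to 1.58). Neither reached 20 CPM. The 8 licensing and helicase members (the loader Cdc6, the GINS subunit Gins2 and the MCM subunits Mcm2 to Mcm7) summed to a ratio of 1.16 with none at 1.5, from 1.05 for Mcm2, at 111 CPM in KO-labelled and 106 CPM in WT cells, to 1.32 for Gins2, at 53.5 and 40.5 CPM. Mcm4 was at 155 and 144 CPM (ratio 1.08) and Mcm5 at 107 and 95.1 CPM (ratio 1.12, 1.07 to 1.17). The helicase genes thus differed little between the libraries. The 3 members that supply DNA precursors, thymidylate synthase (Tyms) and the ribonucleotide reductase subunits Rrm1 and Rrm2, had ratios of 1.30, 1.29 and 1.27.

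Members that act at the fork and on new chromatin spread more widely. Pcna, the sliding clamp, was at 184 CPM in KO-labelled and 157 CPM in WT cells (ratio 1.17, 1.13 to 1.21). Its binding partner Pclaf was at 286 and 209 CPM (1.37), and Ung, the uracil glycosylase, at 59.2 and 47.1 CPM (1.26). Uhrf1 had the lowest ratio of all members, at 414 CPM in KO-labelled and 399 CPM in WT cells (1.04, 1.02 to 1.06). Esco2, which acetylates cohesin to hold sister chromatids together, was at 38.7 and 23.9 CPM, a ratio of 1.62 (1.49 to 1.76), the sole replication member past 1.5 among those that entered.

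The mitotic members were higher in the KO-labelled Ptcra cells in every functional group. Among CDK1 and its cyclins, which together summed to a ratio of 1.72, Ccnb2 was at 45.9 CPM in KO-labelled and 20.7 CPM in WT cells (2.22, 2.04 to 2.42) and Ccnb1 (cyclin B1) at 29.7 and 14.9 CPM (1.99, 1.80 to 2.21). Cdk1 was at 62.9 and 37.7 CPM (1.67) and Ccna2 (cyclin A2) at 53.3 and 38.1 CPM (1.40), so cyclin A2 stayed short of the 1.5-fold mark. The 3 centromere members had the highest summed ratio, 1.92: Cenpa, the centromeric histone H3 variant, was at 56.7 and 26.9 CPM (2.11, 1.96 to 2.27), the kinetochore protein Cenpf at 58.5 and 30.3 CPM (1.93) and the kinetochore motor Cenpe at 41.3 and 24.2 CPM (1.70).

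The 2 members of the anaphase-promoting pathway summed to 1.87, with its E2 enzyme Ube2c at 130 CPM in KO-labelled and 66.9 CPM in WT cells (1.95) and its activator Cdc20 at 42.6 and 25.4 CPM (1.68). Of the spindle members (1.67 summed), Nusap1, which bundles microtubules, was at 64.5 and 30.3 CPM (2.13, 1.98 to 2.28), ahead of the motors Kif11 (1.66), Kif20a (1.55, under 20 CPM) and Kif23 (1.43) and the spindle assembly factor Tpx2 (1.65). The spread among these motors shows that members of 1 functional group did not move to the same extent. The chromosome members were both higher: Mki67, the proliferation antigen that coats mitotic chromosomes, was at 215 and 138 CPM (1.55, 1.501 to 1.61), and Top2a, which untangles sister DNA, at 279 and 172 CPM (1.62, 1.57 to 1.67).

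The kinases, passenger proteins and checkpoint members summed to the lowest ratio of the mitotic groups, 1.51. The passenger complex kinase Aurkb (1.65), its partner Birc5 (1.59) and the polo-like kinase Plk1 (1.60) were higher, Aurka, the centrosomal kinase, had a ratio of 1.60 under 20 CPM, and the passenger subunit Cdca8 (1.37) and the spindle checkpoint kinases Bub1b (1.48) and Bub1 (1.26, under 20 CPM) did not reach 1.5. Across 48 other replication and repair genes, 4 of 44 that entered were higher and 0 lower, with ratios of 1.71 for the thymidine kinase Tk1 and 0.946 for the mismatch repair gene Msh6 near either end. Across 55 other mitotic genes, 16 of 41 were higher and 0 lower, led by Cdca3 at 66.1 CPM in KO-labelled and 31.9 CPM in WT cells (2.07), with the condensin subunit Smc4 lowest at 0.851. Other transcripts of the class also moved with the library: 6 genes of gamma-delta T cells, all detected, summed to 628 CPM in KO-labelled and 1204 CPM in WT Ptcra cells, and the 8 double-negative genes to the 2394 and 3122 CPM given above. Their part in the member levels was not tested.

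**Figure D2:**
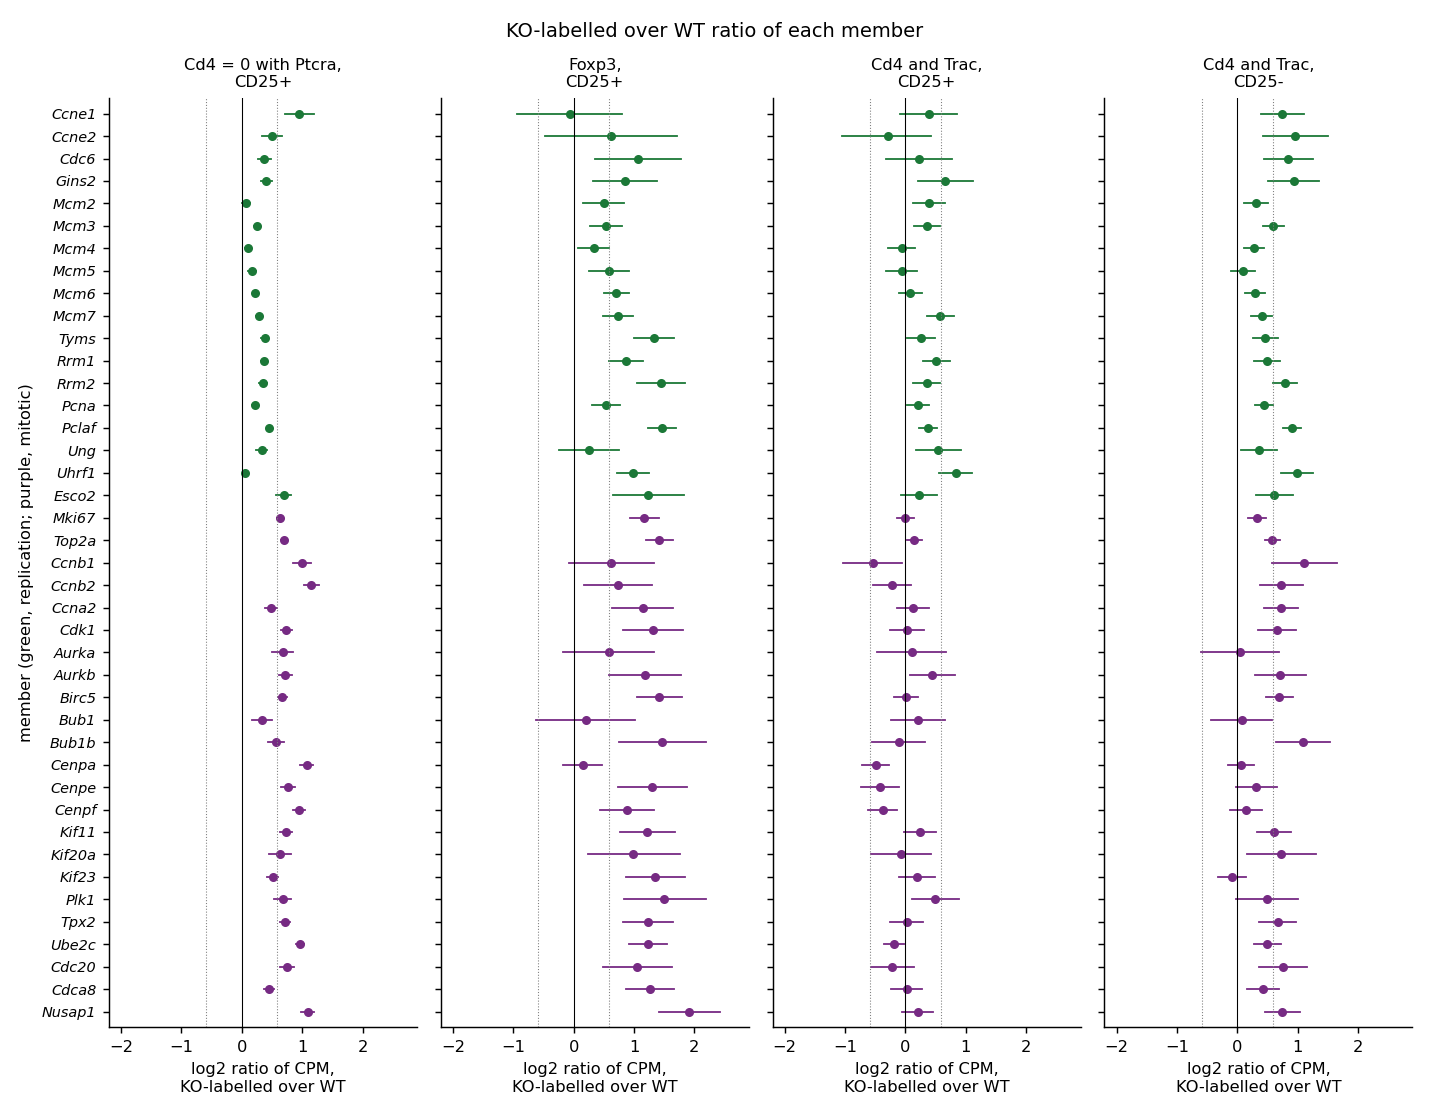
Log2 ratio of CPM, KO-labelled over WT (horizontal axes), of each member with at least 20 UMIs over both libraries (rows; green, replication; purple, mitotic) in 4 comparisons; points are ratios, lines 95% counting intervals and dotted lines 1.5-fold. All points lie right of 0 in the Ptcra class, with the purple points farther right, whereas the purple points straddle 0 in the Cd4 and Trac class of the CD25+ gate.

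The same difference was then read as shares of cells. To remove the effect of depth on the call of a state, each cell was thinned to 1500 UMIs and shallower cells were left out. A cell was called S-type with at least 2 UMIs over the replication members and mitotic-type with at least 2 UMIs over the mitotic members. The class of a cell was still called on all its UMIs, so entry into a class can depend on depth. In the Ptcra class, 3730 of 6572 KO-labelled cells (56.8%, 95% Clopper-Pearson interval 55.5 to 58.0) and 2389 of 4783 WT cells (49.9%, 48.5 to 51.4) were S-type, a difference of 6.81 percentage points (Newcombe interval 4.95 to 8.66). Of the same cells, 944 KO-labelled (14.4%, 13.5 to 15.2) and 379 WT cells (7.92%, 7.17 to 8.73) were mitotic-type, a difference of 6.44 points (5.29 to 7.58). Without thinning the S-type shares were 90.2% in KO-labelled and 90.8% in WT cells, so the S-type difference turned to -0.549 points at full depth, where nearly every cell passed 2 UMIs. The unthinned mitotic-type shares were 33.2% and 24.8%.

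Mitotic transcripts were concentrated in few cells. After thinning, 70.8% of KO-labelled and 78.2% of WT Ptcra cells held no mitotic member UMI, while the 8.25% of KO-labelled and 4.12% of WT cells with at least 5 held 76.3% and 64.4% of all mitotic member UMIs of the class. A mitotic-type cell held on average 8.03 mitotic UMIs in KO-labelled cells (7.85 to 8.21) and 6.72 in WT cells (6.46 to 6.98). Both the share of mitotic-type cells and the mitotic UMIs in each per 1500 UMIs were thus higher in the KO-labelled class. Thinned counts are shares of a cell's UMIs, so they do not give the number of mitotic transcripts per cell. The median mitotic-type cell held 6 mitotic UMIs in KO-labelled and 5 in WT cells, and the intervals leave out the spread between cells. Replication transcripts were spread over most cells: 18.3% of KO-labelled and 21.7% of WT Ptcra cells held none, and 19.0% and 12.1% held at least 5. Of the mitotic-type cells, 87.9% in KO-labelled and 88.9% in WT cells were also S-type, whereas 22.3% and 14.1% of S-type cells were also mitotic-type.

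The mitotic-type Ptcra cells were deeper before thinning, at a median of 13336 UMIs in KO-labelled and 17149 in WT cells. Among all cells that passed the filters, 10.6% of mitotic-type cells in the KO-labelled CD25+ library and 5.06% in the WT CD25+ library were called doublets and removed. Keeping doublets left the Ptcra counts and sums in place. No class free of dividing cells was at hand to set the share that stray RNA gives: Cd4 and Trac cells with S1pr1, a receptor of mature cells ready to leave the thymus, were still 26.4% and 17.7% S-type in the KO-labelled and WT CD25+ libraries. The lowest mitotic-type share of any class, 1.79%, stood for 1 of 56 KO-labelled CD25- Foxp3 cells.

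**Figure D3:**
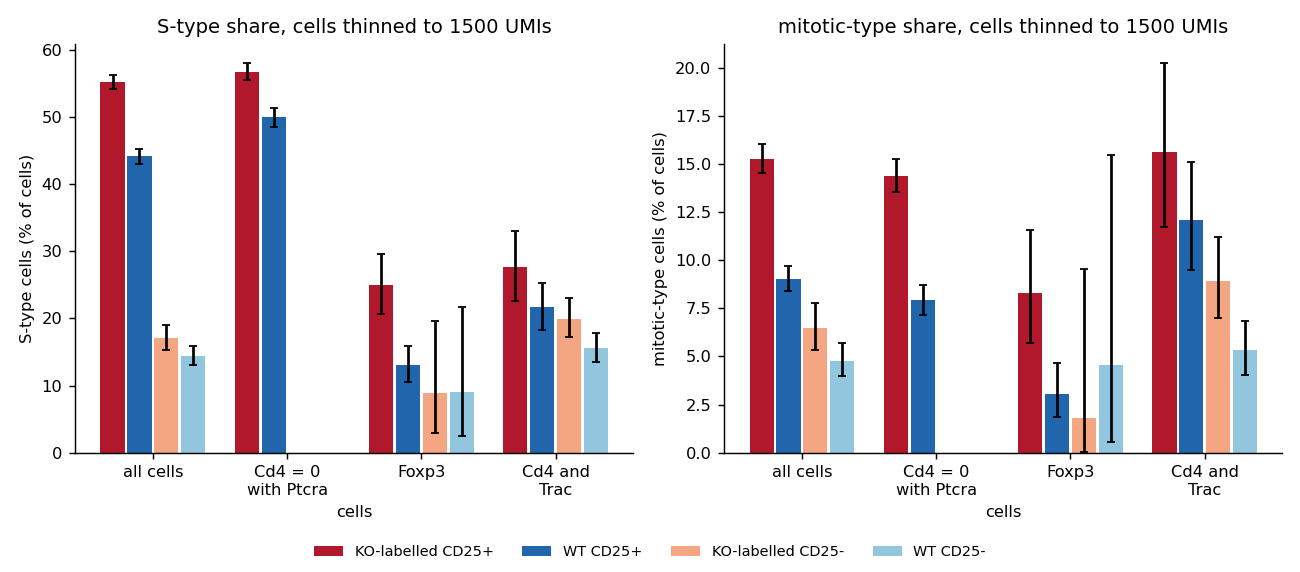
Percent of cells called S-type (left) and mitotic-type (right) after thinning to 1500 UMIs (vertical axes), in all cells and in each class of the 4 libraries; error bars are 95% Clopper-Pearson intervals. S-type shares are highest in the Ptcra class, at 56.8% and 49.9%, and mitotic-type shares are similar in KO-labelled Ptcra cells, 14.4%, and KO-labelled Cd4 and Trac cells of the CD25+ gate, 15.6%.

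**Figure D4:**
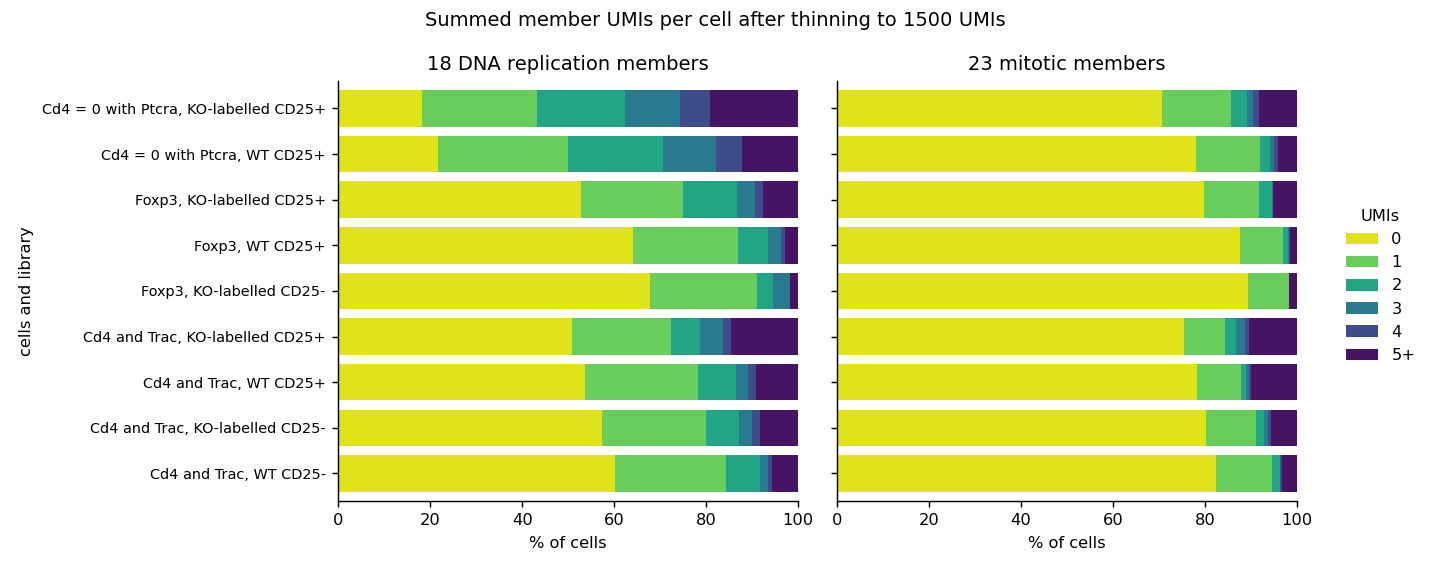
Percent of cells (horizontal axis) with each number of summed replication (left) or mitotic (right) member UMIs after thinning to 1500 UMIs, for each class and library with at least 50 thinned cells. The mitotic bars are mostly cells without any mitotic UMI, 70.8% of KO-labelled and 78.2% of WT Ptcra cells, whereas 18.3% and 21.7% of those cells held no replication UMI.

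Foxp3 encodes the transcription factor that defines Tregs. In Foxp3 cells of the CD25+ gate, the replication members summed to 1510 CPM in KO-labelled and 867 CPM in WT cells (ratio 1.74, 1.66 to 1.83) and the mitotic members to 1240 and 558 CPM (2.22, 2.10 to 2.36). Of 34 members that entered, 28 were higher and 0 lower, 10 of 15 replication and 18 of 19 mitotic members, against 6.03% of all genes higher and 3.58% lower. Ratios above 1 were found for 40 of 41 members, the exception being Ccne1 at 9.26 and 9.60 CPM (0.964, 0.523 to 1.74). The median log2 ratio of those that entered was 0.74 for replication and 1.23 for mitotic members, and -0.03 for all genes. After thinning, 19 of 373 KO-labelled and 9 of 658 WT Foxp3 cells held at least 5 mitotic UMIs. These cells held 77.1% and 57.8% of all mitotic UMIs of the class. The mitotic intervals and member counts thus rest largely on few cells, whose spread a counting interval leaves out.

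The widest differences in the Foxp3 class were those of Nusap1, at 55.1 CPM in KO-labelled and 14.7 CPM in WT cells (3.75, 2.66 to 5.34), Plk1, at 25.5 and 9.003 CPM (2.83), Pclaf, at 191 and 69.3 CPM (2.76), and Bub1b, at 22.2 and 8.10 CPM (2.74). Top2a was at 205 and 76.8 CPM (2.67), Mki67 at 176 and 78.0 CPM (2.25) and Mcm5 at 69.9 and 46.5 CPM (1.503). The smallest ratios after that of Ccne1 were those of Cenpa, at 63.0 and 56.7 CPM (1.11), Bub1 (1.16) and Ung, at 29.2 and 24.3 CPM (1.20). Cenpa, among the widest in the Ptcra class, was thus nearly level here. Pcna was at 142 and 98.1 CPM (1.45), Ccnb1 at 16.7 and 10.8 CPM (1.54, 0.944 to 2.52), and Ccne2 had a ratio of 1.54 (0.722 to 3.29), so counting error covers no difference for both cyclins. Of the other cell cycle genes, 30 of 38 replication genes and 27 of 33 mitotic genes that entered were higher and 0 lower, led by Tk1 (3.51) and Cdca3 (4.74).

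The Foxp3 difference moved with the cells that also held Ptcra. Such cells made up 62 of 389 KO-labelled (15.9%) and 40 of 679 WT Foxp3 cells (5.89%), and 55 and 36 of them rested on a single Foxp3 UMI. Their replication members summed to 2989 CPM in KO-labelled and 2322 CPM in WT cells, and their mitotic members to 2762 and 1559 CPM. Foxp3 cells without Ptcra stood far lower, at 922 and 706 CPM for replication and 635 and 447 CPM for mitotic members, and between them the KO-labelled over WT ratios were 1.31 and 1.42, with 9 members higher instead of 28. For comparison, 58 of 6644 KO-labelled (0.873%) and 34 of 4824 WT Ptcra cells (0.705%) held a Foxp3 UMI. Foxp3 cells that also held Cd4 and Trac, 60 KO-labelled and 135 WT, had replication members at 1222 and 709 CPM (1.72). Their mitotic members stood at 1622 and 368 CPM (4.403), so among them the mitotic ratio was higher than in the class. That mitotic ratio rests on few cells. In the Cd4 and Trac class of the CD25+ gate, 47 KO-labelled and 67 WT cells were mitotic-type after thinning, and 41 and 65 of these lacked Foxp3. Where the Foxp3 class was called on thinned cells, 213 KO-labelled and 410 WT cells remained, the mitotic ratio turned to 0.977 and 2 members were higher and 2 lower. The S-type share was 24.9% (93 of 373) in KO-labelled and 13.1% (86 of 658) in WT Foxp3 cells, a difference of 11.9 points (6.89 to 17.1) and the mitotic-type share was 8.31% and 3.04% (5.27 points, 2.39 to 8.69). Without the Ptcra-holding cells the S-type difference was 4.38 points (-0.110 to 9.33), an interval that reaches 0, and the mitotic-type difference 3.18 points (0.564 to 6.50). Another random thinning gave a mitotic-type difference of 3.21 points (0.491 to 6.43).

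Foxp3 cells of the CD25- gate held few member UMIs, so most members are given as counts. The replication members held 140 UMIs in KO-labelled and 80 in WT cells (ratio of levels 1.15, 0.870 to 1.54), and the mitotic members 63 and 89 UMIs (0.466, 0.332 to 0.651). Of 12 members that entered, 4 were higher and 5 lower, against 17.1% and 20.7% of all genes, so at this depth members and background could not be separated. Mki67 was lower, at 29.2 CPM in KO-labelled and 97.5 CPM in WT cells (10 and 22 UMIs, ratio 0.299, 0.127 to 0.659), and Mcm7 at 29.2 and 70.9 CPM (0.412); the other 7 members counted were Mcm2, Mcm3, Mcm5, Rrm1, Top2a, Cenpa and Kif23. Set against these few cells, Foxp3 cells of the CD25+ gate had 34 members higher and 0 lower in the KO-labelled libraries (17.8% and 19.1% of all genes) and 16 higher and 1 lower in the WT libraries (16.3% and 18.7%). The summed CD25+ over CD25- ratios were 3.69 (3.12 to 4.41) for replication and 6.74 (5.25 to 8.80) for mitotic members in KO-labelled cells, and 2.45 (1.96 to 3.09) and 1.41 (1.14 to 1.77) in WT cells. The shares of mitotic-type cells were 8.31% in CD25+ and 1.79% in CD25- Foxp3 cells of the KO-labelled libraries (6.53 points, -1.5001 to 10.1) and 3.04% and 4.55% in the WT libraries (-1.51 points, -12.1 to 2.16), both intervals reaching 0. In the KO-labelled CD25- class 1 cell held 27 of the 32 thinned mitotic UMIs, so the KO-labelled mitotic gate ratio is set against a level carried mostly by that cell. Of 44 thinned WT CD25- Foxp3 cells, 1 held at least 5 mitotic UMIs and 35 held none. The mitotic ratio between the CD25- libraries and the WT mitotic gate ratio thus also rest on few cells, whose spread a counting interval leaves out.

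Cells with Cd4 and Trac, the co-receptor and the alpha chain constant region of the mature receptor, gave another picture. In the CD25+ gate the replication members summed to 1821 CPM in KO-labelled and 1470 CPM in WT cells (1.24, 1.19 to 1.29), but the mitotic members to 2065 and 2091 CPM (0.988, 0.954 to 1.02). Of the 304 KO-labelled and 560 WT cells, 60 and 135 also held Foxp3, and the KO-labelled over WT ratio of the Foxp3-free cells was not computed. Of 39 members that entered, 2 were higher and 0 lower, against 2.93% of all genes higher and 3.39% lower, a share close to the background. The 2 were Uhrf1, at 93.5 and 52.6 CPM (1.78, 1.47 to 2.15), and Gins2, at 34.3 and 21.7 CPM (1.58, 1.15 to 2.16). With classes called on thinned cells the Gins2 ratio turned to 0.700. Median log2 ratios were 0.36 for replication members, 0.01 for mitotic members and -0.02 for all genes that entered.

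The lowest ratios in this class were those of Ccnb1, at 21.2 CPM in KO-labelled and 30.7 CPM in WT cells (0.692, 0.490 to 0.966), and of the 3 centromere genes, Cenpa at 93.1 and 131 CPM (0.710, 0.605 to 0.832), Cenpe at 51.0 and 68.5 CPM (0.745) and Cenpf at 84.5 and 110 CPM (0.769). The centromere group, which had the highest summed ratio of the mitotic groups in Ptcra cells, thus had the lowest here, 0.739 (0.667 to 0.817), though none of its genes passed 1.5-fold. Mki67 was level at 262.1 and 262.2 CPM (1.00), Top2a was at 377 and 341 CPM (1.11), Pcna at 176 and 152 CPM (1.15) and Mcm5 at 83.3 and 86.6 CPM (0.962). Mcm7, at 134 and 90.2 CPM (1.49), and Ung, at 47.4 and 32.5 CPM (1.46), came next to the 2 higher members. Ccne1 had a ratio of 1.31 (29.4 and 22.5 CPM) and Ccne2 of 0.815 (10.2 and 12.5 CPM). Other cell cycle genes gave 5 of 41 replication and 3 of 44 mitotic genes higher and 0 lower. The S-type shares, 27.6% and 21.6%, differed by 5.95 points (-0.00887 to 12.2) and the mitotic-type shares, 15.6% and 12.1%, by 3.54 points (-1.18 to 8.70), both intervals reaching 0. The S-type difference depended on the settings: its interval lay above 0 at 3 UMIs (7.75 points), with thinning to 3000 UMIs (8.03 points) and with doublets kept (7.77 points), while another random thinning gave 1.77 points (-4.17 to 7.995). With classes called at 2 UMIs, 97 KO-labelled and 162 WT cells remained and 13 members were lower in the KO-labelled library (mitotic ratio 0.607), and with classes called on thinned cells the replication ratio turned to 0.906 and the mitotic ratio to 1.22. Markers moved with the library in this class too: 5 genes of mature cells summed to 901 CPM in KO-labelled and 1436 CPM in WT cells, 10 double-negative genes to 485 and 348 CPM, and 6 double-positive genes to 136 and 66.7 CPM. Their part in the member levels was not tested.

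In the CD25- gate both sets of members were higher in KO-labelled than in WT Cd4 and Trac cells. Replication members summed to 1252 CPM in KO-labelled and 875 CPM in WT cells (1.43, 1.38 to 1.48) and mitotic members to 1012 and 728 CPM (1.39, 1.34 to 1.44). Of 34 members that entered, 17 were higher (8 replication, 9 mitotic) and 0 lower, against 2.45% of all genes higher and 0.843% lower. Median log2 ratios were 0.49 and 0.60 for the replication and mitotic members that entered and -0.01 for all genes. The 4 highest ratios were those of Ccnb1, at 14.5 and 6.77 CPM (2.14, 1.49 to 3.12), Bub1b, at 20.7 and 9.79 CPM (2.12, 1.56 to 2.88), Uhrf1, at 53.5 and 26.9 CPM (1.99, 1.65 to 2.39), and Ccne2, at 13.4 and 6.91 CPM (1.93). The 4 lowest were Kif23, at 46.8 and 49.5 CPM (0.945), Aurka, at 6.69 and 6.48 CPM (1.03), Cenpa, at 54.6 and 52.4 CPM (1.04), and Bub1 (1.05). Kif23 was the single member of 41 with a ratio below 1. After thinning, the 42 of 761 KO-labelled and 35 of 1073 WT cells with at least 5 mitotic UMIs held 78.0% and 73.0% of the mitotic UMIs.

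Among the remaining markers of division in these cells, Top2a was at 207 CPM in KO-labelled and 138 CPM in WT cells (1.497), Mki67 at 134 and 107 CPM (1.25), Pcna at 136 and 100.1 CPM (1.35), Mcm5 at 64.4 and 60.5 CPM (1.07) and Ccne1 at 26.7 and 16.0 CPM (1.67). The 2 E cyclins summed to the highest ratio of any group here, 1.75, and the centromere genes to the lowest, 1.10. Of the other cell cycle genes that entered, 11 of 36 replication and 9 of 28 mitotic genes were higher and 0 lower, led by Tk1 (2.15) and Cenpw (1.93). S-type shares were 19.97% (152 of 761) and 15.6% (167 of 1073), a difference of 4.41 points (0.879 to 8.03), and mitotic-type shares 8.94% and 5.31%, a difference of 3.62 points (1.26 to 6.16). With 1 UMI required in place of 2 the differences were 2.87 points (-1.68 to 7.44) and 2.10 points (-1.49 to 5.78), and both intervals reached 0. Another random thinning gave a mitotic-type difference of 2.31 points (0.0518 to 4.73). Depth and quality moved with this comparison: the median Cd4 and Trac cell held 7345 UMIs in the KO-labelled and 6024 in the WT CD25- library, and Gm42418, a gene overlapping ribosomal RNA sequence, was at 17878 and 33269 CPM of the whole libraries. Their part in the difference was not tested. With classes called on thinned cells, 124 KO-labelled and 266 WT cells remained, the replication ratio was 0.986 and 6 members were higher and 3 lower.

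Over whole libraries, without cell classes, 8 members were higher and 0 lower in the KO-labelled CD25+ library (1.72% of all genes higher, 2.32% lower), all 8 mitotic: Ccnb1, Ccnb2, Cdk1, Plk1, Aurkb, Ube2c, Cdc20 and Nusap1. All 41 members had ratios above 1, from 1.13 for Mcm4, at 167 CPM in KO-labelled and 148 CPM in WT cells, to 1.79 for Nusap1, at 61.9 and 34.6 CPM. In the KO-labelled CD25- library 8 members were also higher and 0 lower (1.76% and 1.25% of all genes), but 6 were replication members: Ccne1, Mcm3, Rrm2, Pclaf, Uhrf1 and Esco2, with Ccna2 and Nusap1. Mki67 had a ratio of 1.37 in the CD25+ and 1.14 in the CD25- gate, Top2a of 1.47 and 1.49, Pcna of 1.18 and 1.26, Mcm5 of 1.16 and 1.07, and Ccne2 of 1.33 and 1.54. The lowest ratio in the CD25- gate was that of Cenpa, at 44.2 and 49.3 CPM (0.895). Whether the 2 gates differ in their KO-labelled over WT ratios was not tested.

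The CD25+ over CD25- comparison sets the gates side by side within a genotype. In WT Cd4 and Trac cells the replication members summed to 1470 CPM in CD25+ and 875 CPM in CD25- cells (1.68, 1.62 to 1.74) and the mitotic members to 2091 and 728 CPM (2.87, 2.77 to 2.98). In KO-labelled cells the ratios were 1.45 (1.40 to 1.51) and 2.04 (1.97 to 2.12). As given above, few cells held most mitotic UMIs on both sides, and the intervals leave out their spread. Of 41 members, 30 were higher and 0 lower in WT CD25+ cells (7.36% and 4.89% of all genes), and 26 were higher and 0 lower in KO-labelled CD25+ cells (10.5% and 10.2%). The mitotic group thus led in both genotypes, with 21 and 19 of its 23 members higher in WT and KO-labelled cells, and 9 and 7 of 18 replication members. Of the other cell cycle genes that entered, 33 of 43 mitotic genes were higher in KO-labelled and 38 of 40 in WT CD25+ cells, and 18 of 41 and 20 of 37 replication genes, with 0 lower. Quality and markers moved with the gate in this class: Gm42418 was at 4415 CPM in CD25+ and 14892 CPM in CD25- cells of the KO-labelled libraries and at 5531 and 25455 CPM in those of the WT libraries. The 10 double-negative genes, among them Il2ra, which the gate selects, summed to 485 and 95.1 CPM in KO-labelled and 348 and 96.1 CPM in WT cells. Their part in the gate ratios was not tested.

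In WT cells the highest gate ratios were those of Ube2c, at 216 CPM in CD25+ and 44.1 CPM in CD25- cells (4.90, 4.29 to 5.60), Ccnb1, at 30.7 and 6.77 CPM (4.53, 3.21 to 6.49), Ccnb2, at 65.2 and 16.0 CPM (4.08), and Cdc20, at 49.3 and 12.7 CPM (3.89). The lowest were Mcm2 (1.12), Kif23 (1.15), Mcm7 (1.25) and Ung (1.27). In KO-labelled cells the order differed, with Plk1 highest at 43.3 and 11.9 CPM (3.64), then Ube2c at 189 and 62.1 CPM (3.05), Bub1 (2.89) and Aurka (2.75), and Ccne2 lowest (0.763, 0.467 to 1.21), beside Cdc6 (1.00), Mcm4 (1.05) and Ccne1 (1.10). Mki67 had gate ratios of 1.96 in KO-labelled and 2.46 in WT cells, Top2a of 1.82 and 2.46, Pcna of 1.30 and 1.52, and Mcm5 of 1.29 and 1.43. Ccnb1 had 1.46 in KO-labelled cells, and Ccne1 and Ccne2 had 1.41 and 1.81 in WT cells. Over whole libraries, where Ptcra cells fill the CD25+ gate, 34 members were higher and 1 lower in KO-labelled CD25+ cells (21.1% and 18.4% of all genes), and 32 were higher and 0 lower in WT CD25+ cells (20% and 17.9%). Uhrf1 led both, at 367 CPM in KO-labelled CD25+ against 43.6 CPM in KO-labelled CD25- cells (8.40) and at 316 CPM in WT CD25+ against 23.3 CPM in WT CD25- cells (13.5). Ccne1 went the other way, at 11.9 and 20.4 CPM in the KO-labelled libraries (0.581, 0.501 to 0.676) and 8.10 and 11.6 CPM in the WT libraries (0.701, 0.583 to 0.846). Mki67 had whole-library gate ratios of 2.32 in KO-labelled and 1.94 in WT cells, and Ccnb1 of 3.17 and 3.23.

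Within the CD25+ gate, the Ptcra and the Cd4 and Trac class differed in the levels of the members. The replication members were higher in Ptcra than in Cd4 and Trac cells, with summed ratios of 1.42 (1.37 to 1.46) in the KO-labelled and 1.48 (1.44 to 1.52) in the WT library. The mitotic members were lower, with ratios of 0.773 (0.751 to 0.796) and 0.461 (0.450 to 0.472). These mitotic ratios are set against the few Cd4 and Trac cells that, as given above, held most mitotic UMIs of their class. Of 39 members that entered in the KO-labelled library, 5 were higher and 7 lower in Ptcra cells, against 19.3% and 14.1% of all genes, so these counts lie near the background. In the WT library 6 of 39 were higher and 21 lower, against 20.9% and 15.4% of all genes, so the count of lower members stood above it. The sums depended on how classes were called: over the alternatives the replication ratio ran from 1.02 (classes at 2 UMIs) to 2.35 (classes called on thinned cells) in the KO-labelled and from 1.09 to 1.68 in the WT library, and the mitotic ratio from 0.659 to 1.02 and from 0.236 to 0.750. Median log2 ratios in the KO-labelled library were 0.36 for replication and -0.37 for mitotic members, and 0.39 and -0.97 in the WT library, beside 0.05 and 0.09 for all genes.

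Uhrf1 had the highest ratio of all members in both libraries. It was at 414 CPM in Ptcra and 93.5 CPM in Cd4 and Trac cells of the KO-labelled library (4.43, 3.89 to 5.07) and at 399 and 52.6 CPM in the WT library (7.58, 6.61 to 8.74). It held 16.1% of all replication member UMIs of KO-labelled Ptcra cells and 5.13% of those of Cd4 and Trac cells, and 18.4% and 3.58% in the WT library. Without Uhrf1 the replication ratio of the classes was 1.25 in both libraries. In the KO-labelled library Cdc6 (42.5 and 21.2 CPM, 2.00), Mcm6 (293 and 154 CPM, 1.91) and Ccne2 (1.78, under 20 CPM) came next. In the WT library they were Mcm7 (183 and 90.2 CPM, 2.03), Gins2 (1.86) and Cdc6 (1.81).

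Ccne1, the other cyclin E gene, ran the opposite way, at 10.8 CPM in Ptcra and 29.4 CPM in Cd4 and Trac cells of the KO-labelled library (0.369, 0.288 to 0.479) and at 5.60 and 22.5 CPM in the WT library (0.249). The 2 E cyclins thus differed in direction between the classes in the KO-labelled library, while Ccne2 was near level in the WT library (1.03). In the WT library Cenpa had the lowest ratio, at 26.9 and 131 CPM (0.205), with Cenpf at 30.3 and 110 CPM (0.276) and Ube2c at 66.9 and 216 CPM (0.310). In the KO-labelled library the lowest after Ccne1 were Bub1 (0.565), Esco2, at 38.7 and 66.1 CPM (0.584), and Plk1 (0.593). Ccnb1 was higher in Ptcra cells of the KO-labelled library (1.40, 1.06 to 1.88) and lower in the WT library (0.486). Top2a had ratios of 0.741 and 0.506 in the KO-labelled and WT libraries, Mki67 of 0.820 and 0.528, Pcna of 1.05 and 1.03, and Mcm5 of 1.28 and 1.10. Where Cd4 and Trac cells were instead taken at a sum of 1 UMI over both genes, the mitotic ratio of the KO-labelled library turned to 1.02, and 0 members were lower. Of the other cell cycle genes in the KO-labelled library, 11 of 44 replication genes were higher and 0 lower in Ptcra cells, led by the replication-coupled ubiquitin ligase subunit Dtl (2.00), and 1 of 44 mitotic genes was higher and 4 were lower.

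**Figure D5:**
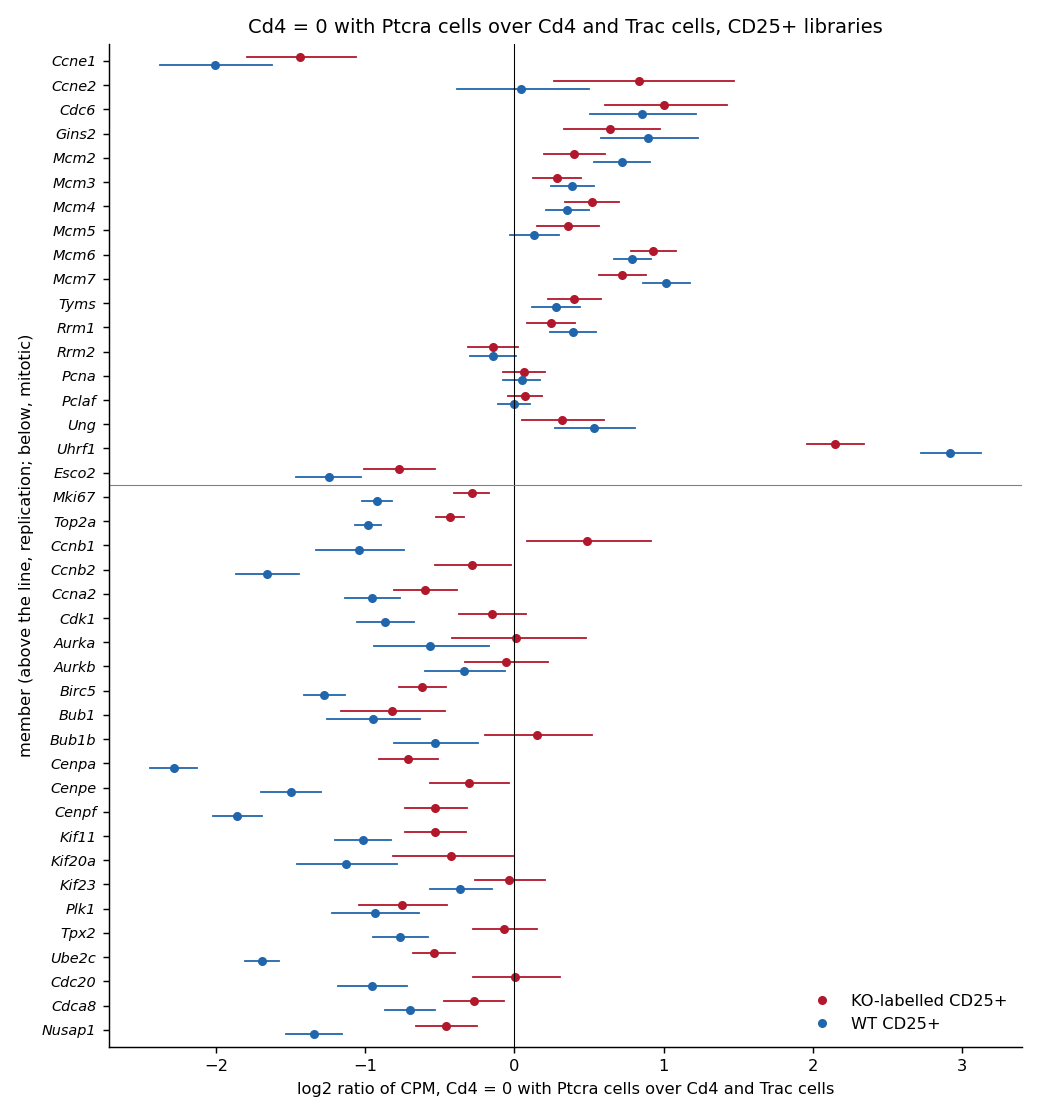
Log2 ratio of CPM in Ptcra over Cd4 and Trac cells of the CD25+ gate (horizontal axis) for each member (rows), in the KO-labelled (red) and WT (blue) library; lines are 95% counting intervals, and a horizontal line parts the replication from the mitotic members. Uhrf1 lies farthest right and Ccne1 among the farthest left in both libraries, and the WT points of all 23 mitotic members lie left of 0.

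Shares of cells were compared between the same classes. S-type cells were 56.8% of Ptcra and 27.6% of Cd4 and Trac cells in the KO-labelled library, a difference of 29.2 points (23.7 to 34.1), and the difference was 28.3 points in the WT library. Uhrf1, far higher in Ptcra cells as given above, counts toward the S-type call. The shares were not computed without it, so its part in these differences was not tested. Mitotic-type shares differed by -1.25 points (-5.86 to 2.52) in the KO-labelled and by -4.15 points (-7.21 to -1.57) in the WT library. After thinning, mitotic-type Cd4 and Trac cells held more mitotic UMIs each than the 8.03 and 6.72 of mitotic-type Ptcra cells. The Cd4 and Trac means were 11.8 (10.8 to 12.8) in KO-labelled and 15.3 (14.4 to 16.3) in WT cells. The replication excess of Ptcra cells was also present among cells that were not mitotic-type, a comparison that was added with the data in view: the summed ratio was 2.501 (2.18 to 2.88) over 5628 Ptcra and 254 Cd4 and Trac cells of the KO-labelled library and 2.48 (2.23 to 2.76) over 4404 and 488 cells of the WT library. Among them Uhrf1 was at 392 and 12.3 CPM in the WT library (31.9, 16.8 to 69.8) and had 3474 and 3 UMIs in the KO-labelled library (52.3, 17.9 to 254). It held 3474 of 11748 replication UMIs of these Ptcra cells but 3 of 212 of these Cd4 and Trac cells in the KO-labelled library. In the WT library it held 2591 of 7982 and 9 of 357. Part of the summed excess was thus Uhrf1 alone, and these summed ratios were not computed without it. Within the Ptcra class, the ratio of Uhrf1 in mitotic-type over other cells was 0.930 (0.848 to 1.02) in the KO-labelled and 0.987 (0.856 to 1.13) in the WT library, both intervals covering 1. The same ratio was 1.68 and 1.63 for Mcm2, 10.1 and 15.5 for Tyms and 23.7 and 47.6 for Rrm2.

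Foxp3 cells were last set against Cd4 and Trac cells without Foxp3 in the same CD25+ library. Their replication members summed to 0.776 of the level of the Foxp3-free cells in the KO-labelled library and 0.528 in the WT library, and their mitotic members to 0.574 and 0.225. After thinning, 26 of 241 KO-labelled and 54 of 422 WT Foxp3-free cells held at least 5 mitotic UMIs. With classes at 2 UMIs the replication ratios were 0.262 and 0.275 and the WT mitotic ratio 0.0947, and with classes called on thinned cells the KO-labelled mitotic ratio was 0.125. Over the alternatives run the highest ratios were 0.820 and 0.574 for replication and 0.752 and 0.348 for mitotic members, so the direction held over these alternatives while the size did not. The 0.752 was that of KO-labelled Foxp3 cells that also held Cd4 and Trac, which the Foxp3 class does not require. The median Foxp3 cell held 4288 UMIs and the median Foxp3-free cell 6942 in the KO-labelled library, and 4146 and 6416 in the WT library. The part of depth and of the class rules was not tested. In the KO-labelled library 0 members were higher and 20 lower in Foxp3 cells (11.8% and 12.1% of all genes). In the WT library 0 were higher and 33 lower (9.35% and 11%), all 23 mitotic members among them. The lowest WT ratios were those of Nusap1, at 14.7 CPM in Foxp3 and 91.9 CPM in Foxp3-free cells (0.160), Cenpe, at 13.2 and 82.5 CPM (0.160), Ube2c, at 42.3 and 261 CPM (0.162), and Birc5, at 29.4 and 172 CPM (0.171). In the KO-labelled library they were Ccne1, at 9.26 and 31.1 CPM (0.297), Bub1 (0.336), Esco2 (0.416) and Ccna2 (0.439).

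Uhrf1 was again at the other end, with 1.18 (0.978 to 1.41) in the KO-labelled and 1.04 (0.852 to 1.28) in the WT library, both intervals covering 1. Mki67 had ratios of 0.640 and 0.253 in the KO-labelled and WT libraries, Top2a of 0.518 and 0.191, Ccnb1 of 0.750 and 0.289, Pcna of 0.769 and 0.579, Mcm5 of 0.765 and 0.503, and Ccne2 of 0.652 and 0.319. Ccne1 had 0.383 in the WT library. Of the other mitotic genes that entered, 28 of 45 were lower in the KO-labelled and 45 of 47 in the WT library, and of the other replication genes 6 of 42 and 27 of 41. The 62 KO-labelled and 40 WT Foxp3 cells with Ptcra again moved the values: without them 37 members were lower in the KO-labelled library instead of 20, and the replication and mitotic ratios were 0.474 and 0.294. The mitotic-type share of Foxp3 cells was lower by 8.70 points in the KO-labelled library (-14.5 to -3.38) and by 12.4 points in the WT library than in Foxp3-free cells. The S-type difference was -5.36 points (-12.7 to 1.80) in the KO-labelled library, an interval that reaches 0, and -12.3 points in the WT library.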

How the data were processed

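For each of 4 libraries the authors deposited a matrix of raw UMI counts over 32285 genes and its barcodes. Reads had been mapped to mm10, and Cell Ranger is named in version 6.2.1 by the submitters' processing notes but in version 6.1.2 per the file headers. Gene positions came from GENCODE vM21 and promoters from RefSeq.

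Barcodes under 500 genes or with 10% or more mitochondrial UMIs were left out, and doublets were removed with Scrublet (scanpy 1.11.5, Python 3.11.15) at 0.8% per 1000 deposited barcodes. UMIs were summed per library and class and scaled to CPM. A class needed 1 UMI of each gene that defines it. Levels have exact Poisson intervals, ratios exact conditional binomial intervals and shares Clopper-Pearson intervals (scipy 1.17.1), all at 95% and for counting error only. With 1 library per group no test was run. The calls were run on simulated counts, those of ratios drawn gene by gene with Poisson error, the model that also sets the intervals. That run checks the code and cannot show how calls behave where few cells hold most UMIs.

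The members, the 48 and 55 other cell cycle genes, the marker lists and the comparisons, 17 in all, were chosen with earlier results of these data known. Each comparison names members at 1.5-fold or, where more than 8 qualify, the 4 highest and 4 lowest with at least 20 UMIs, and always Mki67, Top2a, Ccnb1, Pcna, Mcm5, Ccne1 and Ccne2. In the Ptcra class every member is given. Members named beyond this rule were picked after their values were seen. Other cell cycle genes are named from the extremes of their lists.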

Additional observations from a re-analysis of the deposited data

How the results depend on the processing

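Of 662 alternative values, 451 were labelled as kept, 206 as moved and 5 as reversed, and 23 of 2690 directions of members past 1.5-fold turned. Counts of members, 336 of the values, could not be labelled as reversed, and an empty count that stayed empty was labelled as kept. Other values could reverse only where the reported interval left out no difference, so the labelling itself limits the reversals. Of 252 summed ratios 132 moved and 4 reversed, and of 74 share differences 15 moved and 1 reversed. No paired analysis was possible because each group has 1 library, and for the same reason no library could be left out in turn. Alternatives on Ptcra within a class, on Foxp3 cells with Cd4 and Trac and on cells without mitotic-type expression were added after the data had been seen. Class calls rest on single UMIs, and the cause of a move was not tested. The Ptcra class was steadiest: its summed KO-labelled over WT ratios stayed within 1.19 to 1.27 for replication and 1.65 to 1.91 for mitotic members.

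Counts of members follow, in each case KO-labelled over WT unless stated, with the count as reported in parentheses. A 2-fold in place of a 1.5-fold mark left 0 members higher in all CD25+ cells (8), 0 in all CD25- cells (8), 3 in Ptcra cells (17), 1 in CD25- Cd4 and Trac cells (17) and 0 in CD25+ Cd4 and Trac cells (2). It left 13 higher in KO-labelled CD25+ over CD25- Cd4 and Trac cells (26) and 0 lower over whole KO-labelled libraries (1). For Ptcra over Cd4 and Trac cells it left 2 higher (5) and 1 lower (7) in the KO-labelled and 2 higher (6) and 12 lower (21) in the WT library, and for Foxp3 over Foxp3-free cells 8 lower in the KO-labelled library (20). A minimum of 50 CPM left 3 higher in all CD25+ cells, 3 in all CD25- cells, 10 in Ptcra cells, 15 in CD25+ Foxp3 cells (28), 1 in CD25+ and 5 in CD25- Cd4 and Trac cells, 4 lower in KO-labelled Ptcra over Cd4 and Trac cells, and 0 lower in KO-labelled and 18 higher in WT CD25+ over CD25- libraries (32). No CPM minimum gave 16 higher in all CD25- cells, and cells of at least 3000 UMIs gave 5.

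Weighting cells equally gave 20 higher in all CD25+ cells, 16 in CD25+ Foxp3 cells, 1 in CD25+ and 7 in CD25- Cd4 and Trac cells, 18 higher and 1 lower (0) in WT and 0 lower in KO-labelled CD25+ over CD25- libraries. A reduced total and centring on the median gene each gave 13 higher in all CD25+ cells. Keeping doublets gave 1 higher in CD25+ Cd4 and Trac cells, 4 lower in KO-labelled Ptcra over Cd4 and Trac cells, and 0 lower in KO-labelled CD25+ over CD25- libraries.

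Classes at 2 UMIs gave 12 higher in Foxp3 cells, 6 higher and 13 lower (0) in CD25+ and 4 higher in CD25- Cd4 and Trac cells, 1 higher and 14 lower in KO-labelled Ptcra over Cd4 and Trac cells, and 40 lower in KO-labelled Foxp3 over Foxp3-free cells. Classes called on thinned cells gave 2 higher and 2 lower (0) in Foxp3 cells, 8 higher and 2 lower in CD25+ and 6 higher and 3 lower (0) in CD25- Cd4 and Trac cells, and 13 higher in KO-labelled Ptcra over Cd4 and Trac cells. They reversed the replication ratio of Cd4 and Trac cells to 0.906 in the CD25+ and 0.986 in the CD25- gate and the mitotic ratio of Foxp3 cells to 0.977. Cd4 plus Trac summing to 1 UMI gave 11 higher in CD25+ and 7 in CD25- Cd4 and Trac cells. For Ptcra over those cells it gave 1 higher and 0 lower in the KO-labelled and 5 lower in the WT library, with a reversed KO-labelled mitotic ratio of 1.02, and 10 lower in KO-labelled Foxp3 over Foxp3-free cells. Without Ptcra-holding cells, 9 members were higher in Foxp3 cells, 2 lower in CD25+ Cd4 and Trac cells, 3 lower in KO-labelled Ptcra over Cd4 and Trac cells, and 37 lower in KO-labelled Foxp3 over Foxp3-free cells.

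Differences of shares, KO-labelled minus WT in percentage points, moved with thinning and the UMI mark. Without thinning the S-type difference was 5.65 in all CD25+ cells (11.1), 11.5 in all CD25- cells (2.65) and, reversed, -0.549 in Ptcra cells (6.81), and the mitotic-type difference was 9.62 (6.22), 4.87 (1.69) and 8.43 (6.44), and 8.90 in Foxp3 cells (5.27). At 1 UMI the S-type difference was 7.90 in all CD25+ and 3.40 in Ptcra cells, and the mitotic-type difference 7.32 in all CD25+ and 0.142 in all CD25- cells. At 3 UMIs the S-type difference in Foxp3 cells was 6.60 (11.9), and the mitotic-type difference 4.69 in all CD25+ and 5.05 in Ptcra cells. Thinned to 3000 UMIs with 4 required, the S-type difference was 12.9 in all CD25+ cells, and without Ptcra-holding cells it was 4.38 in Foxp3 cells. Another random thinning gave mitotic-type differences of 3.21 in Foxp3, 0.849 in all CD25- and 2.31 in CD25- Cd4 and Trac cells (3.62), and an S-type difference of 1.77 in CD25+ Cd4 and Trac cells (5.95).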

Other observations

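Genes outside the cell cycle set were read in the states defined by the members, on thinned cells and over all libraries with at least 50 cells of the state. Mitotic-type Ptcra cells had lower levels than Ptcra cells in neither state of the recombinase gene Rag1, at 0.420 of their level in the KO-labelled and 0.312 in the WT CD25+ library. The activation marker Cd69 was at 0.388 and 0.389, the CDK inhibitor genes Cdkn1a at 0.609 and 0.493 and Cdkn1b at 0.666 and 0.576, and the cyclin D2 gene Ccnd2 at 0.610 and 0.575. Mif, which encodes a cytokine, was higher, at 2.16 and 2.66. Each held in 2 of 2 libraries. Ptcra, which sets the class, was also lower in the mitotic-type cells, at 0.468 to 0.531 over the 2 libraries.

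S-type cells of the Cd4 and Trac class had S1pr1, the receptor for thymic exit, below the level in cells of neither state in 4 of 4 libraries, from 0.353 (0.123 to 0.833) in the KO-labelled CD25+ to 0.558 (0.372 to 0.809) in the WT CD25- library. Foxp3 was at 0.118 of that level in the KO-labelled CD25+ library (0.0138 to 0.452, on 2 and 43 UMIs) and at 0.320 in the WT CD25+ library (0.161 to 0.578, on 12 and 131 UMIs), and had too few UMIs in the CD25- libraries to be read. Mitotic-type cells of the Cd4 and Trac class, read in 3 libraries, also had less S1pr1 than cells in neither state, at 0.536 to 0.633. Cd4, which helps set the class, was at 0.585 to 0.651. Whether entry into a class varied with the state was not tested. Cells are not replicates, and these ratios describe the libraries.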
